A study of Mus musculus with 4 samples.

Results

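Tandem CTCF regions are places where the peak caller resolved neighbouring CTCF peaks separated by a short gap. They were defined here on the control libraries alone. Overlapping peaks of both controls (1 bp or more) were joined, regions with a peak in both controls were kept on chromosomes 1 to 19 up to 1000 bp in length, and a kept region was a member when its nearest other kept region lay 2000 bp or less away, edge to edge. This gave 1809 tandem regions among 20029 kept regions (9.03%), and the other 18220 kept regions are called single here. All 4 peak lists together merged into 29116 regions. Of the 1809 tandem regions, 1736 formed 868 pairs, 69 lay in 23 clusters of 3, and 4 lay in 1 cluster of 4.

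CTCF, a DNA-binding protein with zinc fingers, occupies insulators, promoters and the anchors of chromatin loops, where it halts the cohesin ring that extrudes DNA. The motif has a direction, and many loop anchors and domain borders carry several CTCF sites side by side. TFII-I, encoded by Gtf2i, is a transcription factor that binds initiator elements at promoters and has been described as a partner of CTCF.

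CTCF was measured by chromatin immunoprecipitation and sequencing in WEHI-231, a B cell lymphoma line from a (BALB/c x NZB)F1 mouse. The 4 libraries were 2 of control cells and 2 of cells with a stable TFII-I knockdown, all precipitated with the same CTCF antibody. The title of the series asks whether TFII-I directs CTCF to promoters. The labels do not say whether the 2 replicates of a group came from separate cultures, whether the knockdown cells were 1 clone, or which construct the control cells carried, so spread between replicates may be technical, and the degree of knockdown was not analysed here. Positions are in the mouse build mm9 as the lists give them. No mm9 sequence or annotation was used here, so the regions are given without bases or gene names.

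Each list gives a score per peak, the authors' own value, which runs from 50 to a ceiling of 3100. Sequencing depth is unknown, and the control lists held 24467 and 23873 peaks against 19076 and 15309 in knockdown replicates 1 and 2. Peaks had a median width of 483 and 507 bp in the controls, 328 bp in knockdown replicate 1 and 446 bp in knockdown replicate 2. Because scores cannot be compared between lists, each peak was placed by its percentile within its own list, with 100 the strongest. The mean percentile over both controls is called the control rank of a region. List length and peak width differ with the group and between the knockdown libraries. Values at equal list length are given for some results, and results printed without such a value were not adjusted for list length. The part of peak width was not tested.

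The tandem regions were mostly of moderate strength, and few stood among the strongest CTCF regions. Their scores ran from 50.04 over a median of 108.85 to 912.38 in control replicate 1, and from 50.05 over a median of 102.33 to 635.18 in control replicate 2. Single regions had medians of 123.605 and 117.965 in the same lists. The median control rank was 47.6 for tandem regions and 56.9 for single regions. When all kept regions were divided into 10 groups of control rank, tandem regions made up 11.8% of the weakest group (10.5 to 13.3%, 95% Clopper-Pearson), 11.4% (10.0 to 12.9%) of group 5 and 4.14% (3.31 to 5.11%) of the strongest. All intervals cover counting error over regions, and neighbouring regions are not replicates. Median width was similar, at 602 bp for tandem and 591 bp for single regions.

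Tandem regions occurred on every autosome. Their share of kept regions was lowest on chromosome 12, with 44 of 761 (5.78%, 4.23 to 7.68%), and highest on chromosome 7, with 160 of 1374 (11.6%, 10.0 to 13.5%). Chromosomes 15, 9 and 11 followed with 11.2%, 10.9% and 10.8%. Tandem regions also had slightly more other kept regions around them, with a mean of 3.92 within 100 kb on either side outside their own cluster, against 3.36 for single regions.

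The gap between the partners of a pair ran from 1 bp to 2000 bp, with a median of 970 bp, and the median distance from start to start was 1564.5 bp. Neighbouring kept regions were spread evenly over these distances. There were 231 neighbours with a gap of up to 500 bp, 244 from there to 1000 bp, 225 to 1500 bp and 217 to 2000 bp, followed by 187 in the next 500 bp outside the limit. The limit of 2000 bp therefore falls at no visible step in the distances. The pair just inside it lay on chromosome 4, from 134340475 to 134340981 and from 134342982 to 134343409, with control ranks of 26.7 and 15.2. The neighbours just outside it lay on chromosome 14, from 65245732 to 65246363 and from 65248365 to 65248729, with control ranks of 62.1 and 18.7.

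Partners were usually unequal in the controls. The median difference in control rank within a pair was 22.1 points, and by the higher and lower value of each pair the median control rank was 62.4 for the stronger and 33.0 for the weaker partner. No such difference was calculated for regions that are not neighbours, so the inequality is not read as a trait of tandem pairs. The partner at the lower coordinate was the stronger one in 433 of 868 pairs. The order of the partners by score was the same in both controls in 571 pairs (65.8%), so in the remaining pairs the controls did not settle which partner was stronger. Across all 917 neighbours within 2000 bp, the control ranks of the partners had a Pearson correlation of -0.0482, which is a description over regions from the same libraries. At gaps of 2000 to 5000 bp the value was -0.0752 over 1149 neighbours. A strong partner thus did not go with a strong neighbour at either distance.

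Most tandem regions still had a CTCF peak after TFII-I knockdown. In knockdown replicate 1, 1411 of 1809 were called (78.0%, 76.0 to 79.9%), against 77.5% of all kept regions. In knockdown replicate 2, 1072 were called (59.3%, 57.0 to 61.5%), against 63.9% of all kept regions. Both knockdown lists called 939 tandem regions (51.9%), with a background of 56.3%, and neither called 265 (14.6%, 13.0 to 16.4%), with a background of 14.9%. A further 605 (33.4%) were called in exactly 1 knockdown list, with a background of 28.8%. Without regard to strength, the share without any knockdown call therefore stood at the background.

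At equal control rank, tandem regions were called more often than single regions in knockdown replicate 1 and about as often in replicate 2. Single regions weighted to the control ranks of the tandem regions, in 20 groups of equal size, were called in 72.0% of cases in replicate 1 and 57.9% in replicate 2. Tandem regions stood 6.04 points above this in replicate 1 and 1.36 points above it in replicate 2, a mean of 3.70 ± 3.31 points (SD, n = 2). The mean is little larger than the spread between the 2 knockdown libraries, and no test was made over regions. The share of single regions lay outside the counting interval of the tandem share in replicate 1 and inside it in replicate 2. With all lists shortened to the 15309 peaks of the shortest, the differences were 3.10 and 0.0561 points and their mean 1.58. With peaks scored at least 100 they were 1.68 and -3.24 points and their mean turned to -0.777. That cutoff changes both the control regions that enter and the knockdown calls, and it takes unequal parts of the lists.

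**Figure D1:**
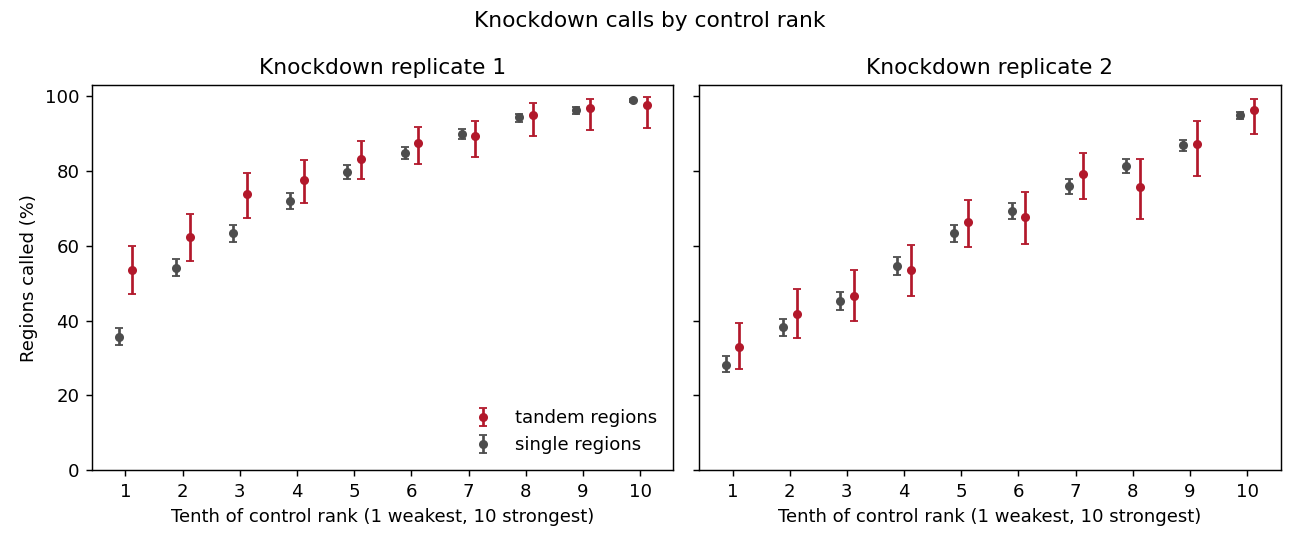
Share of tandem and single regions called in each knockdown list (y axis, %) in 10 groups of control rank (x axis, weakest to strongest); bars are 95% Clopper-Pearson intervals. In knockdown replicate 1 the tandem regions lie above the single regions in all 5 weaker groups, with 53.6% against 35.7% in the weakest, and the sets meet among strong regions.

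The difference in knockdown replicate 1, in percentage points, lay mainly among the weaker regions. In the weakest of the 10 rank groups, 127 of 237 tandem regions were called there (53.6%, 47.0 to 60.1%) against 35.7% (33.5 to 38.0%) of 1766 single regions. Below the median control rank, 798 of 1142 tandem regions were called (69.9%, 67.1 to 72.5%), 9.15 points above single regions of equal rank. Above the median, 613 of 667 were called (91.9%, 89.6 to 93.9%), a difference of 0.723 points. Single regions of equal rank were called in 91.2% there, which leaves little room for a difference in points. In knockdown replicate 2 the differences below and above the median were 2.30 and -0.244 points. Tandem regions without any knockdown call numbered 249 below the median (21.8%, 19.4 to 24.3%, with 27.6% of single regions of equal rank). Above it they numbered 16 (2.40%, 1.38 to 3.87%, with 4.10%). Along the rank groups, single regions rose from 35.7% to 98.9% called in replicate 1, a far wider range than any difference between tandem and single regions.

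A difference of the same sign was present between the controls themselves. For this, chosen after the lists had been seen, the regions were taken from 1 control list alone and their calls were read in the other control and in each knockdown list. Tandem regions of control replicate 1 numbered 2554 and were found in control replicate 2 in 85.3% (83.9 to 86.7%) of cases, 1.84 points above single regions of equal rank. The 2363 tandem regions of control replicate 2 were found in control replicate 1 in 88.3% (87.0 to 89.6%), 3.23 points above. The same regions stood 5.27 and 7.54 points above in knockdown replicate 1, and 1.23 and 2.92 points above in knockdown replicate 2. Knockdown replicate 2 thus lay slightly below the differences seen between controls, and knockdown replicate 1 lay above them. The readings from the 2 control lists use the same knockdown libraries and largely shared regions, and these orders were not tested. Single regions of equal rank were found in 83.5% and 85.1% in the other control, but in 66.0% and 65.8% in knockdown replicate 1. In knockdown replicate 2 they were found in 53.1% in both cases, so these points are compared from unlike starting shares.

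**Figure D2:**
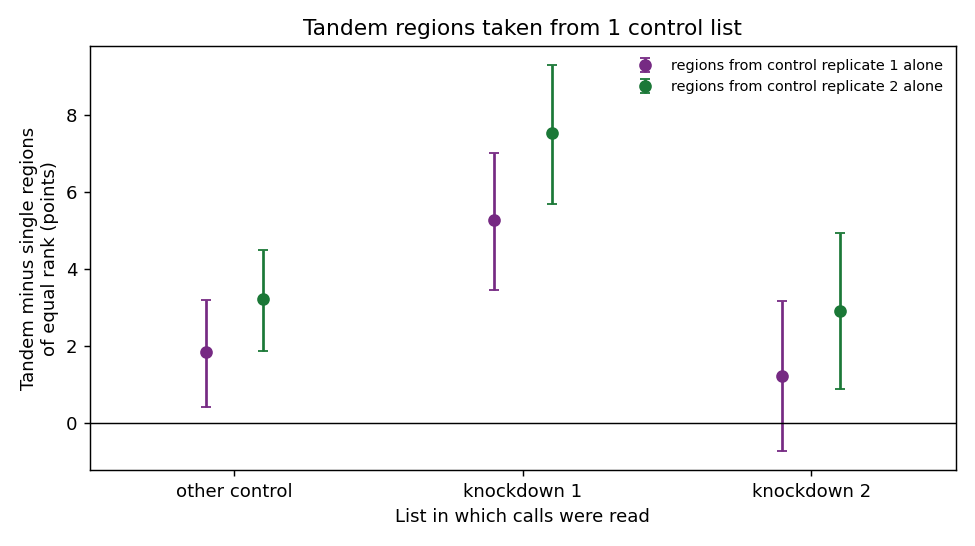
Difference in the share called between tandem regions and single regions of equal rank (y axis, percentage points) when regions are taken from 1 control list and read in the list on the x axis; bars are the 95% Clopper-Pearson interval of the tandem share. The other control and knockdown replicate 2 lie between 1.23 and 3.23 points, and knockdown replicate 1 lies at 5.27 and 7.54 points.

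The difference did not stop at the 2000 bp limit. In knockdown replicate 1, regions whose nearest neighbour lay within 500 bp stood 5.13 points above single regions of equal rank, those at 500 to 1000 bp 6.57 points, and those at 1000 to 2000 bp 6.24 points. The 2104 regions with a nearest neighbour at 2000 to 5000 bp, which are single by the rule, still stood 4.57 points above, with 1665 called (79.1%, 77.3 to 80.9%). At 5000 to 10000 bp the difference was -0.556 points. On either side of the limit, regions at 1500 to 2000 bp stood 7.25 points above and those at 2000 to 2500 bp 6.04 points. In knockdown replicate 2 the values over the same 5 distance classes were 1.95, 4.33, -0.633, 0.474 and -2.24 points, with no such order.

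**Figure D3:**
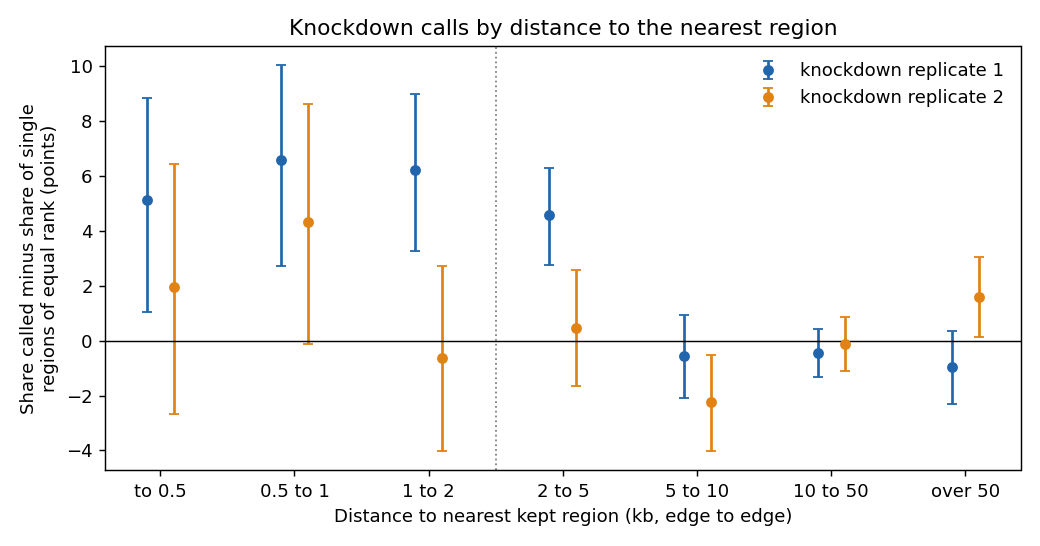
Share called minus the share of single regions of equal control rank (y axis, percentage points) by distance to the nearest kept region (x axis, kb); bars are the 95% Clopper-Pearson interval of the share called, and the dotted line is the 2 kb limit. Knockdown replicate 1 lies above 0 in the 4 classes up to 5 kb, from 4.57 to 6.57 points, and knockdown replicate 2 shows no step at the limit.

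Both partners of a pair kept a peak in 524 of 868 pairs (60.4%, 57.0 to 63.6%) in knockdown replicate 1 and in 301 pairs (34.7%, 31.5 to 38.0%) in knockdown replicate 2. If single regions of the same 2 control ranks were called separately, the product of their shares would give 52.1% and 33.7%. The pairs stood 8.29 and 0.977 points above these products, a mean of 4.63 ± 5.17 points (SD, n = 2), which is within the spread between the knockdown libraries. At equal list length the differences were 4.36 and -0.698 points, with a mean of 1.83, and with peaks scored at least 100 the mean was -2.31 points. An excess over the product was also present between the controls. Pairs taken from control replicate 1 or 2 alone stood 3.36 and 5.47 points above it in the other control. The same pairs stood 6.76 and 10.0 points above in knockdown replicate 1, and 1.02 and 2.69 points in replicate 2, from unlike products. Neither partner was called in 40 pairs (4.61%, 3.31 to 6.22%, with a product of 7.59%) in replicate 1 and in 135 pairs (15.6%, 13.2 to 18.1%, with a product of 17.3%) in replicate 2.

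**Figure D4:**
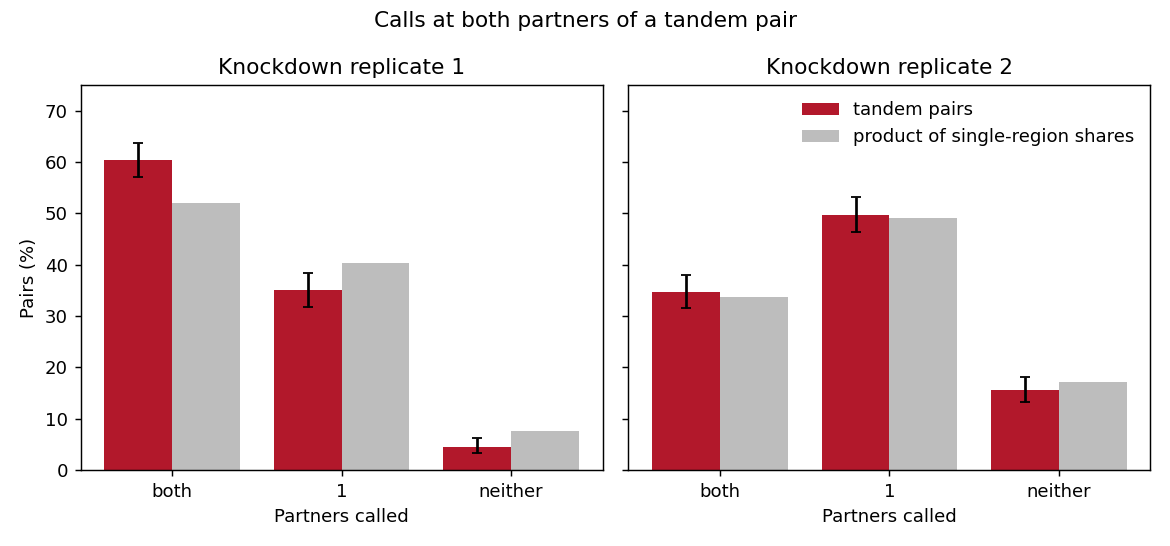
Share of the 868 pairs (y axis, %) with both, 1 or neither partner called in each knockdown list, beside the product of the shares of single regions of equal rank; bars are 95% Clopper-Pearson intervals. Both partners were called in 60.4% of pairs against a product of 52.1% in replicate 1, and in 34.7% against 33.7% in replicate 2.

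The calls of neighbouring partners showed almost no correlation. Multiplying the shares called at the lower and the higher coordinate over all pairs gave 60.6% for both partners in knockdown replicate 1 and 35.5% in replicate 2, close to the 60.4% and 34.7% observed. The correlation between the calls of neighbours within 2000 bp was -0.0210 in replicate 1 and -0.0286 in replicate 2 over 917 neighbours. At 2000 to 5000 bp it was 0.0183 and -0.0922 over 1149 neighbours, and at 5000 to 10000 bp 0.0302 and 0.0160 over 1763. At 10 to 50 kb it was 0.0109 and -0.000985 over 7513 neighbours. These values are descriptions over regions that share their libraries. By gap length, both partners were called in replicate 1 in 131 of 218 pairs (60.1%, with a product of 53.3%) with gaps up to 500 bp, 149 of 235 (63.4%, with 54.1%) to 1000 bp and 244 of 415 (58.8%, with 50.3%) to 2000 bp. In replicate 2 these shares were 36.2%, 38.3% and 31.8%, with products of 34.8%, 35.3% and 32.3%. In replicate 2 the pairs with the longest gaps thus stood just below their product, and every product lay inside the interval of its share. The knockdown peaks also resolved the partners, since no peak of replicate 1 covered both partners of a pair called at both, and 5 of the 301 such pairs were covered by 1 peak in replicate 2.

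Within a pair, the weaker partner was the one more often missing, and single regions of the same control ranks differed likewise. In knockdown replicate 1 the stronger partner was called in 745 of 868 pairs (85.8%, 83.3 to 88.1%) and the weaker in 607 (69.9%, 66.8 to 73.0%). In knockdown replicate 2 the numbers were 605 (69.7%, 66.5 to 72.7%) and 429 (49.4%, 46.1 to 52.8%). Single regions of the ranks of the stronger and the weaker partners were called in 83.3% and 61.2% in replicate 1. In replicate 2 these shares were 69.6% and 46.8%. At equal control rank, the weaker partners stood 8.75 points above single regions in replicate 1 and 2.59 points in replicate 2, and the stronger partners 2.52 and 0.110 points. Where both partners were called as separate peaks and both controls had them in the same order, that order was kept in 228 of 331 pairs in replicate 1 (68.9%, 63.6 to 73.8%) and in 130 of 188 in replicate 2 (69.1%, 62.0 to 75.7%).

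Over both knockdown lists a pair could have 4 calls. All 4 were present in 229 pairs (26.4%, 23.5 to 29.4%, with a product of 23.9%), 3 in 316, 2 in 219, 1 in 84 and none in 20 pairs (2.30%, 1.41 to 3.54%, with a product of 3.45%). In 130 pairs (15.0%, 12.7 to 17.5%, with a product of 18.7%) 1 partner was called in both knockdown lists and its neighbour in neither. The missing partner was the weaker one by control rank in 112 of these 130 (86.2%, 79.0 to 91.6%). Calls rose with control rank among single regions as well, and no such share was calculated for single regions of the same ranks. Pairs without any call were rare, at 20 of 868, and the product of 3.45% lay inside the interval of their share. For the 130 split pairs the product of 18.7% lay above the interval of their share.

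The strongest pairs, ordered by their weaker partner, kept nearly all of their calls. Single regions were called in 94.3% of rank group 8 and 98.9% of the strongest group in knockdown replicate 1. In knockdown replicate 2 these shares were 81.4% and 94.9%, so calls were usual at this strength. The first pair lay on chromosome 13, with partners from 45101706 to 45102481 and from 45103524 to 45104125 and a gap of 1042 bp. Its left partner had control scores of 233 and 226 (replicates 1 and 2, the order kept for all pairs here) and knockdown scores of 261 and 162. Its right partner had control scores of 179 and 179 and knockdown scores of 168 and 134. The order of these partners was thus the same in all 4 libraries. On chromosome 8, the partners from 97226702 to 97227266 and from 97227840 to 97228463 reached 162 and 203, and 230 and 186, in the controls. In the knockdown lists they scored 104 and 60.9, and 70.3 and 86.9, so that their order differed between libraries. The pair on chromosome 10, from 127622961 to 127623595 and from 127625382 to 127626096, and the pair on chromosome 11, from 70590641 to 70591196 and from 70591496 to 70592181, were also called at both partners in both knockdown lists. The fifth pair lay on chromosome 17 with a gap of 1485 bp. Its right partner, from 45617364 to 45617882, was called in both knockdown lists with scores of 88.2 and 79.4. Its left partner, from 45615336 to 45615878, reached 192 and 231 in the controls and 91.0 in knockdown replicate 1, and had no call in replicate 2.

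Pairs with the smallest gaps were almost touching in the controls and kept a call at 1 partner or both in every knockdown list. Among all 868 pairs, neither partner was called in 4.61% (replicate 1) and 15.6% (replicate 2), so a kept call was usual. On chromosome 7 a gap of 1 bp separated the region from 137905452 to 137906047 from that from 137906049 to 137906687. Knockdown replicate 1 called the left partner alone with a score of 139, and replicate 2 the right partner alone with a score of 55.2. On chromosome 3, with a gap of 3 bp, the left partner from 130948521 to 130949107 was called in both knockdown lists with scores of 92.5 and 162, and the right partner from 130949111 to 130949559 in neither. On chromosome 4, with a gap of 5 bp, the right partner from 135609702 to 135610387 reached 159 and 157 in the controls and scores of 160 and 148 after knockdown. Its left partner, from 135609108 to 135609696, reached 64.3 and 74.4 in the controls and 63.6 in knockdown replicate 1, with no call in replicate 2. The calls at these 3 pairs were the same when the midpoint of the knockdown peak had to lie in the region.

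The split pairs with the strongest missing partner had no knockdown call at a region beside one called in both knockdown lists. A missing call is not an absence of binding, since depth is unknown. On chromosome 1, the left partner from 168083314 to 168084052 reached 202 and 174 in the controls, with knockdown scores of 106 and 119. Its right partner, 93 bp away from 168084146 to 168084737, reached 165 and 125 in the controls and was called in neither knockdown list. On chromosome 15 the missing partner was by far the stronger one. The region from 77198518 to 77199046 reached 124 and 165 in the controls with no knockdown call, while its neighbour from 77197676 to 77198180, with control scores of 63.8 and 58.4, was called with 102 and 69.0. On chromosome 10 the missing partner was the stronger too, from 21756074 to 21756658 with control scores of 140 and 113. Its kept neighbour from 21753959 to 21754609 reached 71.3 and 75.2 in the controls, with knockdown scores of 56.4 and 124. On chromosome 4 the missing region from 155205326 to 155205834 had control scores of 167 and 89.8. The kept region from 155207810 to 155208410 reached 92.4 and 99.95 in the controls, with knockdown scores of 108 and 68.2. These pairs were chosen by the strength of the missing partner, so that 3 of the 4 missing partners being the stronger of their pair is not read against the 112 of 130 above.

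Of the 20 pairs without any knockdown call, that with the highest mean control rank over both partners lay on chromosome 10, from 80461512 to 80462031 and from 80462571 to 80463043, with a gap of 539 bp. Its right partner scored 119 and 202 in the controls and its left partner 63.9 and 89.8. On chromosome 17, the partners from 32210133 to 32210787 and from 32212070 to 32212500 scored 173 and 89.1, and 83.3 and 102. On chromosome 5, those from 135594199 to 135594739 and from 135596550 to 135597126 scored 119 and 56.9, and 111 and 98.2. None of the 6 regions reached a control rank of 80.

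The 24 clusters of more than 2 regions held 73 regions, of which 59 (80.8%) were called in knockdown replicate 1 and 38 (52.1%) in replicate 2. Over all kept regions these shares were 77.5% and 63.9%, and single regions of equal control rank had 65.0% and 50.4%. All regions of a cluster were called in 11 clusters in replicate 1 and in 4 in replicate 2, and clusters without any call numbered 0 and 3. The cluster of 4 lay on chromosome 1 from 159006344 to 159012601. Its first 2 regions scored 146 and 100.3, and 147 and 94.5, in the controls. In knockdown replicate 1 they scored 110 and 74.7. Its remaining regions had no call in replicate 1, and replicate 2 called none of the 4. The cluster of 3 with the highest mean control rank, on chromosome 5 from 101344019 to 101348566, had a middle region with control scores of 303 and 293 that scored 207 and 152 in the knockdown lists. Its left region was called in knockdown replicate 1 alone, with 115, and its right region in both, with 76.3 and 77.1.

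Within each list, the share of peaks with a neighbour within 2000 bp was lower in the knockdown lists, but this order depended on list length. Over autosomal peaks up to 1000 bp it was 10.8% in control replicate 1 and 10.2% in control replicate 2. It was 9.20% in knockdown replicate 1 and 6.01% in knockdown replicate 2. The means were 10.5% ± 0.391 and 7.60% ± 2.26 (SD, n = 2), a difference of -2.92 points. The two-sided exact permutation test over the libraries gave p = 0.33, the smallest possible for 2 against 2. With all lists shortened to 15309 peaks by score, the controls had 5.54% and 5.33% and the knockdown lists 6.88% and 6.01%, a difference of 1.01 points in the other direction (exact permutation p = 0.33). Neither order can be read as a change of tandem binding.

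**Figure D5:**
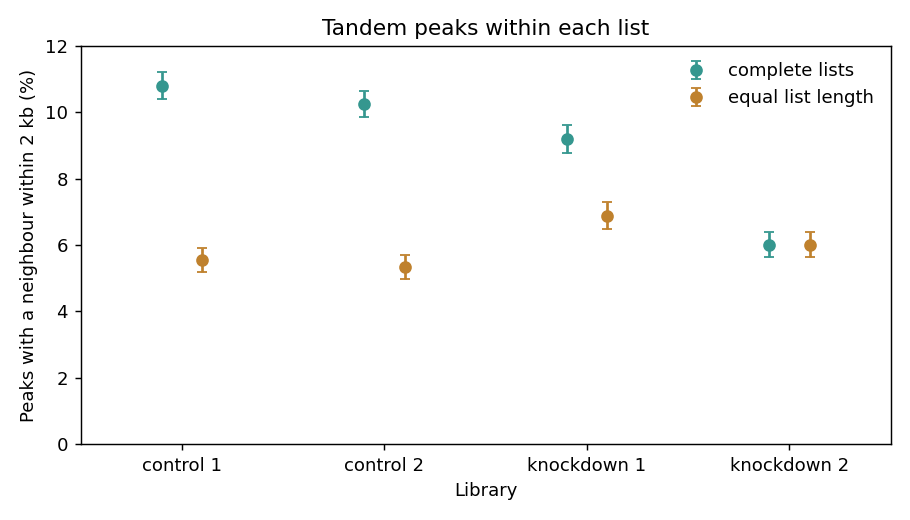
Share of autosomal peaks with another peak of the same list within 2 kb (y axis, %) in each library (x axis), for complete lists and for lists limited to 15309 peaks; bars are 95% Clopper-Pearson intervals. With complete lists the controls lie higher, at 10.8% and 10.2%, and at equal length they lie lower, at 5.54% and 5.33%.

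Tandem regions called in all 4 lists stood somewhat higher in the score order of the knockdown lists, and so did single regions of equal control rank. Among the 11276 kept regions with a call in every list, the 939 tandem regions had mean percentiles of 39.8 and 38.3 in the control lists. In knockdown replicate 1 the mean was 44.3 and in replicate 2 it was 44.8, a difference of 5.54 points (exact permutation p = 0.33, the smallest possible). At equal list length this difference was 7.13 points. Single regions weighted to the same control ranks stood at 39.1 and 39.2 among control peaks, but at 43.7 and 44.9 among knockdown peaks. Against them, the tandem regions differed by 0.540 and -0.0527 points in the knockdown lists. The higher place in the knockdown order is thus shared by single regions of the same strength.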

How the data were processed

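CTCF ChIP-seq of 2 control and 2 TFII-I knockdown libraries was analysed from 1 deposited peak list per library. The score of each peak is the authors' deposited value; its lowest value is 50 and the lists give no tag counts or depth, so it was used only to rank peaks within a list. Peak names carry the word MACS, per the files; BWA, HOMER and the build mm9 are named without roles per the submitters' processing notes. Caller settings and the use of an input are not stated there.

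Control peaks overlapping by 1 bp or more were merged and filtered as stated in the report. The highest score stood for a region with several peaks of a list. A knockdown call was a peak overlapping the region by 1 bp or more. Control rank was divided into 20 groups of equal size, and shares of single regions per group were weighted to the tandem regions. Pairs are clusters of exactly 2 members. Group values were compared by two-sided exact permutation of libraries, and no test was made over regions. Intervals are 95% Clopper-Pearson.

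Named pairs were the 5 with the highest control rank of the weaker partner, the 3 with the smallest gap, the 3 with the highest mean control rank of both partners and no knockdown call, the 4 split pairs with the strongest missing partner, up to 3 of the largest clusters (then by mean control rank), and the neighbours on either side of the limit. The third cluster by that rule, on chromosome 18, is not described. The members and lists were chosen with earlier results of these data known. Calculations used python 3.11.15, numpy 2.4.6, pandas 2.3.3 and scipy 1.17.1, with plots in matplotlib 3.10.9. Simulated lists were used to check that planted pairs and calls were found. A planted difference was checked only within a tolerance wider than some differences given here, and the product for pairs was not checked. Alternatives were other distances (1000 and 5000 bp), no width limit, knockdown peak midpoints, a minimum score of 100, equal list lengths, other rank measures and single regions, and leaving out each library.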

Additional observations from a re-analysis of the deposited data

How the results depend on the processing

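With peaks scored at least 100, the mean difference of tandem from single regions of equal rank turned to -0.777 points and that of pairs with both partners called to -2.31 points; fewer regions enter by construction, with 278 tandem regions in place of 1809. With equal list lengths, the difference in the share of peaks with a near neighbour turned to 1.01 points, from shorter lists by construction. At equal list length the differences of tandem regions and of pairs also fell from 3.70 to 1.58 and from 4.63 to 1.83 points, and the pairs of knockdown replicate 2 stood at -0.698. Under the remaining settings these 3 results and the percentile difference kept the direction of their main values. With 1 library left out, values were 1.36 (without knockdown replicate 1) to 6.04 points (without knockdown replicate 2) for tandem regions, 0.977 to 8.29 points for pairs by the same libraries, -4.51 (without knockdown replicate 1) to -1.32 points (without knockdown replicate 2) for the share of near neighbours, and 4.62 to 6.19 points for the percentile difference. Subtracting single regions of equal rank, added after seeing the data, left 0.389 points of the 5.54. The replicate block gave -2.92 and 5.54 points with an exact sign-flip p of 0.5, the smallest for 2 pairs; same-numbered libraries share only a number, with a correlation of their deviations of 0.0134 over 11276 regions. Depth is unknown, so a missing call is not an absence of binding.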

Other observations

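The knockdown lists held tandem peaks of their own. Knockdown replicate 1 had 868 neighbouring peak pairs within 2000 bp and replicate 2 had 448, counted as all neighbouring peaks of a list; the control regions counted in the same way gave 917. Of these, 480 (55.3%) and 289 (64.5%) lay on 2 different tandem regions of the controls. A further 113 (13.0%) in replicate 1 and 34 (7.59%) in replicate 2 lay within 1 merged control region, 75 and 25 of them within a control region over 1000 bp. In 180 (20.7%) and 89 (19.9%), both peaks lay on different control regions that were not both tandem regions by the rule. In 92 pairs (10.6%) of replicate 1 and 36 (8.04%) of replicate 2, 1 of the peaks overlapped no control peak. Both peaks overlapped no control peak in 3 pairs and in none. Of the single peaks in these pairs, 92 of 1696 (5.42%) and 36 of 888 (4.05%) overlapped no control peak, against 5.49% and 4.61% of all autosomal peaks up to 1000 bp in the same lists. Between the partners of the 868 control pairs, a knockdown peak inside the gap that touched neither partner was found in 4 pairs in each knockdown list.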
